A study of Mus musculus with 4 samples.

Results

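Neutrophil granule genes were described in single-cell RNA from mouse spleen: 4 genes of primary granules (Mpo, Elane, Prtn3 and Ctsg) and 6 of secondary granules (Camp, Ltf, Ngp, Lcn2, Chi3l3 and Fcnb), 10 of the 17252 genes in the table. The members were listed by their known place in the granules, and Chi3l3 and Fcnb were taken with the secondary genes. The libraries came from BALB/c mice that carried BCL1, a transplanted B cell lymphoma started from 10000 cells, and their spleens were taken on day 13 and broken up with Liberase. Mice of the combination library received anti-CD20 (day 4) followed by anti-CD27 (days 5 to 8), those of the anti-CD27 library received anti-CD27 alone (days 5 to 8), those of the anti-CD20 library anti-CD20 alone (day 4), and those of the isotype control library neither. These days are those of the labels, whereas the single-cell methods of the study place both antibodies earlier. The control cells carry the name PBS in the table and were matched to the isotype control by their control role. All 4 libraries therefore came from tumor-bearing mice, each treatment was 1 library, and how many mice contributed to it was not given in the sources used here.

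Neutrophils fill their granules in waves as they mature in the bone marrow or, in mice, also in the spleen. Primary (azurophil) granules are loaded first, at the promyelocyte stage, with myeloperoxidase and serine proteases. Secondary (specific) granules follow at the myelocyte and metamyelocyte stages with lactoferrin, cathelicidin and lipocalin 2, under the transcription factor C/EBPε, and transcription of most granule genes has ended in the mature cell. The mRNA of these genes therefore marks the stage of a cell rather than the content of its granules. Early monocyte precursors and basophils also transcribe some primary granule genes.

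Mpo encodes myeloperoxidase, which makes hypochlorous acid, and Elane, Prtn3 and Ctsg encode the serine proteases neutrophil elastase, proteinase 3 and cathepsin G. Camp encodes the antimicrobial cathelicidin, Ltf the iron-binding lactoferrin, Ngp neutrophilic granule protein, Lcn2 a lipocalin that captures bacterial siderophores, Chi3l3 (also Chil3 or Ym1) a chitinase-like lectin and Fcnb the pattern-recognition lectin ficolin B. In GRCm38, Prtn3 (chr10:79874476-79883174) and Elane (chr10:79886247-79888215) are neighbors on the plus strand, with starts 11.8 kb apart in the gene annotation used here. The RefSeq promoter window of Prtn3 counted below begins at chr10:79879417, inside this gene span. Camp (chr9:109847379-109849617), Ngp (chr9:110419747-110423012) and Ltf (chr9:111019271-111042767) lie on 1 stretch of chromosome 9, with 572 kb between the starts of Camp and Ngp.

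Promoters are printed for 5 members, the primary genes Elane and Mpo and the secondary genes Ngp, Ltf and Fcnb, because the sets differed in the letters they held. Each runs 5′ to 3′ along the gene from 250 bases before to 50 after the start in RefSeq (GRCm38.p6), and capitals mark GAGGAA, the core of sites bound by PU.1, or TTNNGCAA, a C/EBP-type site, on either strand. Elane lies at chr10:79886062-79886361 (plus strand), Mpo at chr11:87793534-87793833 (plus), Ngp at chr9:110419558-110419857 (plus), Ltf at chr9:111019042-111019341 (plus) and Fcnb at chr2:28084829-28085128 (minus).
Elane: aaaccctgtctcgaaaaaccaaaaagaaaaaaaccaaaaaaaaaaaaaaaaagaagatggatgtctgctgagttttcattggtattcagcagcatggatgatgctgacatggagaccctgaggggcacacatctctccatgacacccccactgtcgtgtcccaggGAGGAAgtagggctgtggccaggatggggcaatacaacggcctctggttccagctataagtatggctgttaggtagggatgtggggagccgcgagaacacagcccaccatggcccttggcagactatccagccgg
Mpo: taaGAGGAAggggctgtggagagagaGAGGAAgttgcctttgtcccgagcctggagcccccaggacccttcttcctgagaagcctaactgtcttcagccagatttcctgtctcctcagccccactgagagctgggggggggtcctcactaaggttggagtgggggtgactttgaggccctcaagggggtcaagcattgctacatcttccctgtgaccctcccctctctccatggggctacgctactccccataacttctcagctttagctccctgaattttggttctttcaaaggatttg
Ngp: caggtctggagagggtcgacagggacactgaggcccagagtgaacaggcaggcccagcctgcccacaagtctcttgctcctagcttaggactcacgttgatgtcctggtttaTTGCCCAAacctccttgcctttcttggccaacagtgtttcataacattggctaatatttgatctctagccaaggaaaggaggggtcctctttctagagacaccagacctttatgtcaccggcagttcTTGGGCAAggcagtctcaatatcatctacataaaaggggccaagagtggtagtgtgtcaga
Ltf: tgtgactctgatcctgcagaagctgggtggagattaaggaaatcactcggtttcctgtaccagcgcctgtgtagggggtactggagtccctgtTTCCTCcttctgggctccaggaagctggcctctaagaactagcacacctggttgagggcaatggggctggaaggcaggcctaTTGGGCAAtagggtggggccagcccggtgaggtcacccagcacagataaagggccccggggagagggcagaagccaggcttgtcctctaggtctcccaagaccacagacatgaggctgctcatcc
Fcnb: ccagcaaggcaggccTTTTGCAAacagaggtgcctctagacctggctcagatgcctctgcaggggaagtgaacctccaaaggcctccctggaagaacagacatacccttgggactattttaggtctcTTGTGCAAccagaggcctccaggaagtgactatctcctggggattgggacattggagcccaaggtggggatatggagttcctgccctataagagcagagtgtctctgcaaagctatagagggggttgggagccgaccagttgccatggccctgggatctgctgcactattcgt
GAGGAA or its reverse complement was found in 4 of 4 primary promoters and in 2 of 6 secondary ones (Ltf and Lcn2), against 28.3% of 32851 promoters of the same length. TTNNGCAA or its reverse complement was found in 0 of 4 primary promoters and in 4 of 6 secondary ones (Ltf, Ngp, Lcn2 and Fcnb), against 10.8% of all promoters. Neither was found in the windows of Camp and Chi3l3. These matches describe letters and are not evidence of binding.

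In Drop-seq, droplets pair single cells with barcoded beads, and each transcript is counted once by its unique molecular identifier (UMI). Cells with 300 to 3000 detected genes were kept, 432 in the combination, 497 in anti-CD27, 501 in anti-CD20 and 340 in the isotype control, 1770 of 3198 barcodes. They held 917486, 908930, 939565 and 440710 UMIs in the same order of libraries, with median depths of 1395.5, 1209, 1379 and 1031 UMIs per cell. Of all barcodes 8 occurred in more than 1 library, and of the cells kept none did. Levels are normalized UMI counts (CPM), in which the UMIs of a gene were summed over cells and given per 1000000 UMIs of those cells. Cells are not replicates and there was 1 library per treatment, so no test between treatments could be made, and all intervals are 95% intervals of counting error. They treat UMIs of 1 cell as independent and are too narrow where 1 cell dominates a sum. Summed over a spleen, a higher level can mean more cells of a type, fewer cells of other types or more RNA per cell. Levels over all cells therefore come first and levels within cell classes follow.

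Over all cells the secondary granule genes were abundant, and they were higher in the combination than in anti-CD20 and in anti-CD27 than in the isotype control. Camp had 5990.3 CPM in the combination and 4861 in anti-CD27, against 606 in anti-CD20 and 1361 in the isotype control. Ngp had 5609.9 CPM in the combination and 5517 in anti-CD27, against 462 in anti-CD20 and 1495 in the isotype control. For both genes the libraries with anti-CD27 were high and close to each other, and the anti-CD20 library was the lowest.

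Lcn2 had 1530.3 CPM in the combination and 1657 in anti-CD27, against 137 in anti-CD20 and 356 in the isotype control. Ltf had 1515 CPM in the combination and 1344 in anti-CD27, against 74.5 in anti-CD20 and 297 in the isotype control. For both genes, which withhold iron from bacteria, anti-CD20 was again the lowest and the isotype control next. Ltf was highest in the combination. Lcn2 was highest in anti-CD27, but 384 of its 1506 UMIs there came from 1 cell (25.5%), and its order against the combination rests on that cell. Chi3l3 had 213 CPM in the combination and 152 in anti-CD27, against 10.6 in anti-CD20 and 109 in the isotype control, but 34 of its 48 isotype control UMIs came from 1 cell (70.8%). Fcnb had 104 CPM in the combination and 139 in anti-CD27, against 34.1 in anti-CD20 and 31.8 in the isotype control.

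The primary granule genes were rarer. Mpo had 40.3 CPM in the combination and 107 in anti-CD27, against 25.5 in anti-CD20 and 2.27 in the isotype control, which is 37, 97, 24 and 1 UMIs. Elane had 65.4 CPM in the combination and 93.5 in anti-CD27, against 1.06 in anti-CD20 and 2.27 in the isotype control, with 1 UMI in each of the last libraries. Both were highest after anti-CD27 alone. Prtn3 had 57.8 CPM in the combination and 77.0 in anti-CD27, against 9.58 in anti-CD20 and 6.81 in the isotype control. Ctsg had 20.7 CPM in the combination and 78.1 in anti-CD27, against 34.1 in anti-CD20 and no UMI in the isotype control, where a floor of 3 counts allows up to 6.81 CPM. Ctsg was the only member whose level was lower in the combination than in anti-CD20, and this direction turned when barcodes above 3000 genes were included (log2 ratio 0.08, -0.60 to 0.78).

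**Figure D1:**
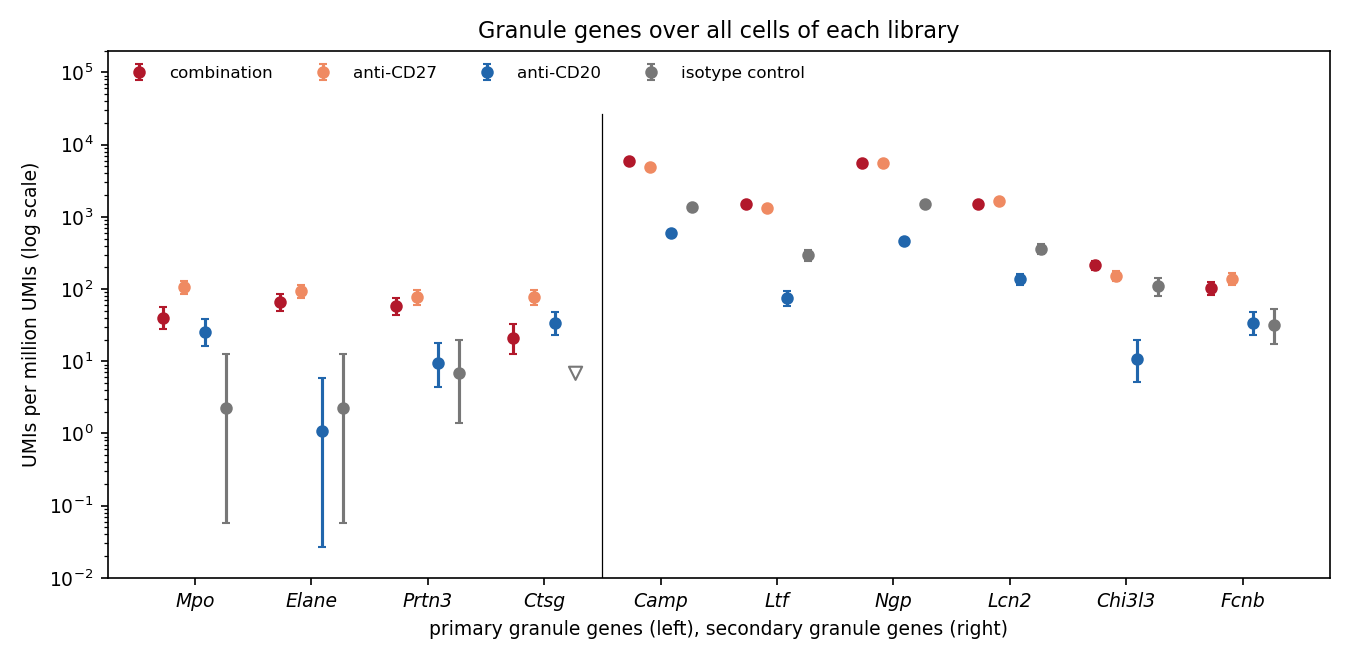
Level of each granule gene over all kept cells of a library (CPM of UMIs, log axis), with points for the 4 libraries, 95% Poisson intervals as bars and an open triangle at the floor of 3 counts where no UMI was found. Camp reached 5990.3 CPM in the combination and 606 CPM in anti-CD20, whereas all primary genes stayed at or under 107 CPM.

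These primary levels rested on few cells. In anti-CD27, Mpo was found in 10 cells and Elane in 7 of 497, and 1 cell held 75.3% of the Mpo UMIs and 83.5% of the Elane UMIs. In the combination, Mpo was found in 6 cells and Elane in 4 of 432, and 1 cell held 86.5% and 95% of their UMIs. Camp was found in 94 cells of the combination and 105 of anti-CD27, against 34 of anti-CD20 and 22 of the isotype control. Its richest cell held 9.86% of its UMIs in the combination and 18.9% in anti-CD27, but 39.0% in anti-CD20 and 46.3% in the isotype control.

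The question of the first comparison was what anti-CD27 adds to anti-CD20. The summed secondary genes were 11.3-fold higher in the combination than in anti-CD20 (log2 ratio 3.50, 3.41 to 3.58) and the summed primary genes 2.62-fold higher (1.39, 0.97 to 1.82). More than 2-fold higher, with 10 CPM added to both sides, were 8 of 10 members, Elane, Prtn3 and the 6 secondary genes, against 6.95% of 7572 genes with at least 30 UMIs. None was more than 2-fold lower, against 4.98% of these genes. The log2 ratios of the secondary genes ran from 1.60 for Fcnb (1.01 to 2.23) to 4.35 for Ltf (4.0 to 4.71). Mpo had a log2 ratio of 0.66 (-0.12 to 1.46) and Ctsg of -0.72 (-1.62 to 0.15), both with intervals that include no change. With 10 CPM added, the median log2 ratio was 1.15 over the primary members and 3.41 over the secondary members, beside -0.06 over all genes compared. The primary difference depended on 2 cells described below and had a log2 ratio of -0.45 without them. On the anti-CD20 side, only 1 of the 66 primary UMIs lay in the granulocyte-like cells described below.

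The second comparison set anti-CD27 alone against the isotype control. The summed secondary genes were 3.74-fold higher in anti-CD27 (log2 ratio 1.90, 1.83 to 1.98) and the summed primary genes 31.3-fold higher (4.97, 3.73 to 6.60), against 5 primary UMIs in the isotype control. Higher by more than 2-fold were 9 of 10 members, against 4.9% of 6612 genes, and none was lower by that much, against 3.55%. Ctsg was at least 11.5-fold higher by the floor of 3 counts. Chi3l3 was the exception with a log2 ratio of 0.48 (-0.00 to 0.98), which became 1.90 when the cell richest in Chi3l3 was left out of each library. Without the 2 cells described below, the primary log2 ratio was 3.44.

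**Figure D2:**
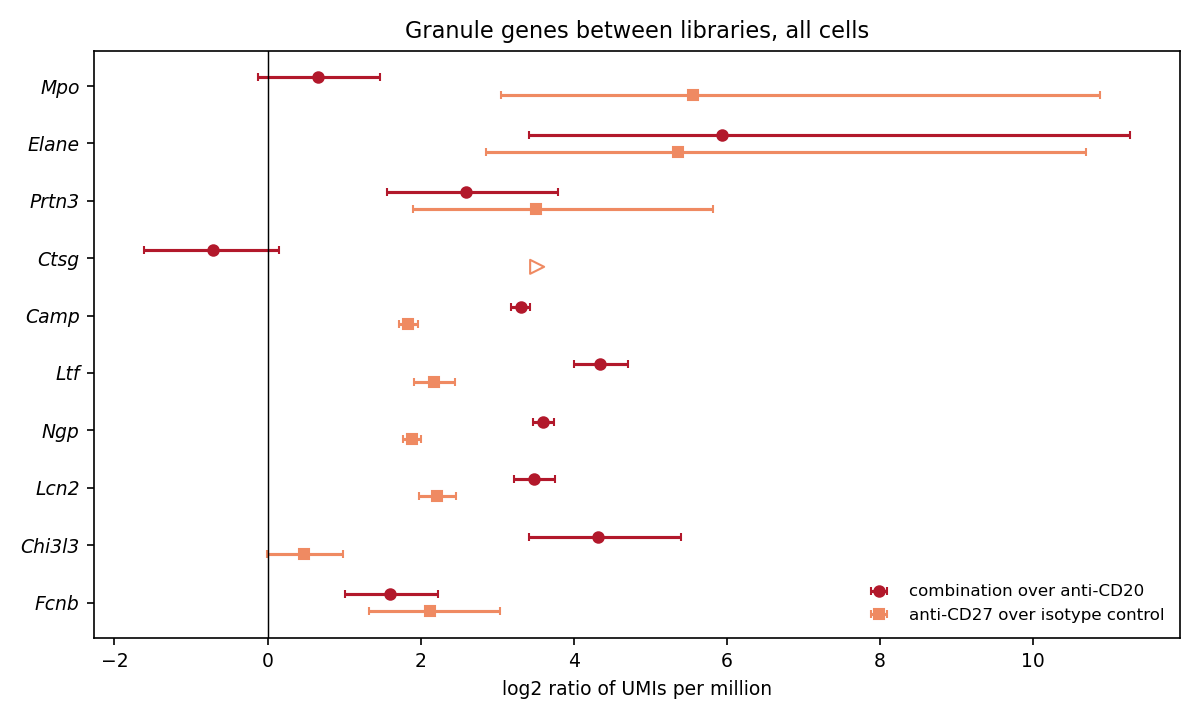
Log2 ratio of CPM over all kept cells, combination over anti-CD20 (circles) and anti-CD27 over isotype control (squares), with 95% intervals of counting error; an open arrow marks a lower bound against 0 UMIs. All 6 secondary genes lay to the right of 0 in both comparisons, from 0.48 (Chi3l3) to 4.35 (Ltf), and Ctsg lay at -0.72 in combination over anti-CD20.

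The same libraries were also set against each other the other way. In the combination over anti-CD27, the secondary sum had a log2 ratio of 0.13 (0.10 to 0.17), and the primary sum of -0.95 (-1.23 to -0.68). Of 10 members, Mpo (-1.40, -1.99 to -0.84) and Ctsg (-1.92, -2.73 to -1.17) were more than 2-fold lower in the combination, against 1.81% of 7399 genes, and none was more than 2-fold higher, against 1.43%. In anti-CD20 over the isotype control, the secondary sum was lower, with a log2 ratio of -1.46 (-1.57 to -1.36). The primary sum was higher, with 2.63 (1.34 to 4.30) from 66 UMIs in anti-CD20 and 5 in the isotype control. Only 1 of these 66 and 2 of these 5 UMIs lay in the granulocyte-like cells described below. Of the 7 members with at least 30 UMIs, Camp, Ltf, Ngp, Lcn2 and Chi3l3 were more than 2-fold lower in anti-CD20, against 1.33% of 6636 genes, and Ctsg was higher, at least 5.0-fold by the floor, against 1.55%.

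To see which cells carried these genes, the cells were clustered without the granule genes and clusters were named from marker lists. Neutrophil lineage cells formed a pair of granulocyte-like clusters, each with 11 granulocyte markers among its top 30 genes by fold. One, of 59 cells, was led by 1100001G20Rik, Cebpe (the C/EBPε gene), Anxa1, S100a8, Cd177 and Ly6g, and is called Cebpe-led. The other, of 79 cells, was led by Stfa2l1, Cxcr2 (the chemokine receptor of neutrophils that leave the marrow), Retnlg, Csf3r and Il1b, and is called Cxcr2-led. Cebpe had 150 UMIs in 42 Cebpe-led cells and 1 UMI in the Cxcr2-led cells, while Cxcr2 itself had 373 CPM in Cebpe-led and 4141 CPM in Cxcr2-led cells. The median depth was 2909 UMIs in Cebpe-led and 956 UMIs in Cxcr2-led cells. Of the proliferation genes compared, 9 of 9 were more than 2-fold higher in Cebpe-led cells, and of the mature neutrophil genes 16 of 18 were more than 2-fold lower, which describes clusters built on such genes.

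Granulocyte-like cells made up 16.4% of the combination (71 of 432, 13.1% to 20.3%) and 10.1% of anti-CD27 (50 of 497, 7.56% to 13.0%), against 1.80% of anti-CD20 (9 of 501, 0.825% to 3.38%) and 2.35% of the isotype control (8 of 340, 1.02% to 4.58%). The difference was 14.6 percentage points between the combination and anti-CD20 (11.1 to 18.5) and 7.71 between anti-CD27 and the isotype control (4.48 to 10.9). Cebpe-led cells were 6.02% of the combination and 5.03% of anti-CD27, a difference of 0.988 points that includes no change (-1.97 to 4.09). Cxcr2-led cells were 10.4% of the combination and 5.03% of anti-CD27, a difference of 5.39 points (1.97 to 9.0). Such shares also depend on the other cells of a library. B cell-like cells, germinal center ones included, were 0.694% of the combination and 39.2% of anti-CD27. They were 43.9% of anti-CD20 and 65.6% of the isotype control, and the part of this in the granulocyte-like shares was not tested. Within the granulocyte-like cells, Cebpe-led ones were 36.6% in the combination (25.5% to 48.9%) and 50% in anti-CD27 (35.5% to 64.5%), against 33.3% in anti-CD20 (7.49% to 70.1%) and 62.5% in the isotype control (24.5% to 91.5%), and these intervals overlap.

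The secondary granule genes lay almost wholly in the Cebpe-led cells. These 59 cells, 3.33% of those kept, held 96.3% of the secondary UMIs, from 91.6% for Lcn2 to 97.4% for Camp and Ltf. Camp and Ngp were each found in 59 of 59 Cebpe-led cells, with 50968 and 51223 CPM. Lcn2 had 13821 CPM, Ltf 12933, Chi3l3 1742 and Fcnb 1204. Together the 6 genes made up 131891 CPM in Cebpe-led cells, and 4593 CPM in Cxcr2-led cells.

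The primary genes were spread more widely. Cebpe-led cells held 94.6% of the Elane UMIs but 69.8% of those of Mpo, 66.7% of Prtn3 and 23.0% of Ctsg. Cells outside the granulocyte-like clusters held 34.5% of the primary UMIs (194 of 563) and 2.19% of the secondary UMIs (636 of 29005). By library, granulocyte-like cells held 128 of 169 primary UMIs in the combination and 238 of 323 in anti-CD27. In anti-CD20 they held 1 of 66, and in the isotype control 2 of 5. The anti-CD20 cells richest in primary UMIs, with 24, 21 and 14, lay in the Car1- and Gata2-led erythroid-like cluster described below. Cxcr2-led cells held a single primary UMI, of Prtn3.

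**Figure D3:**
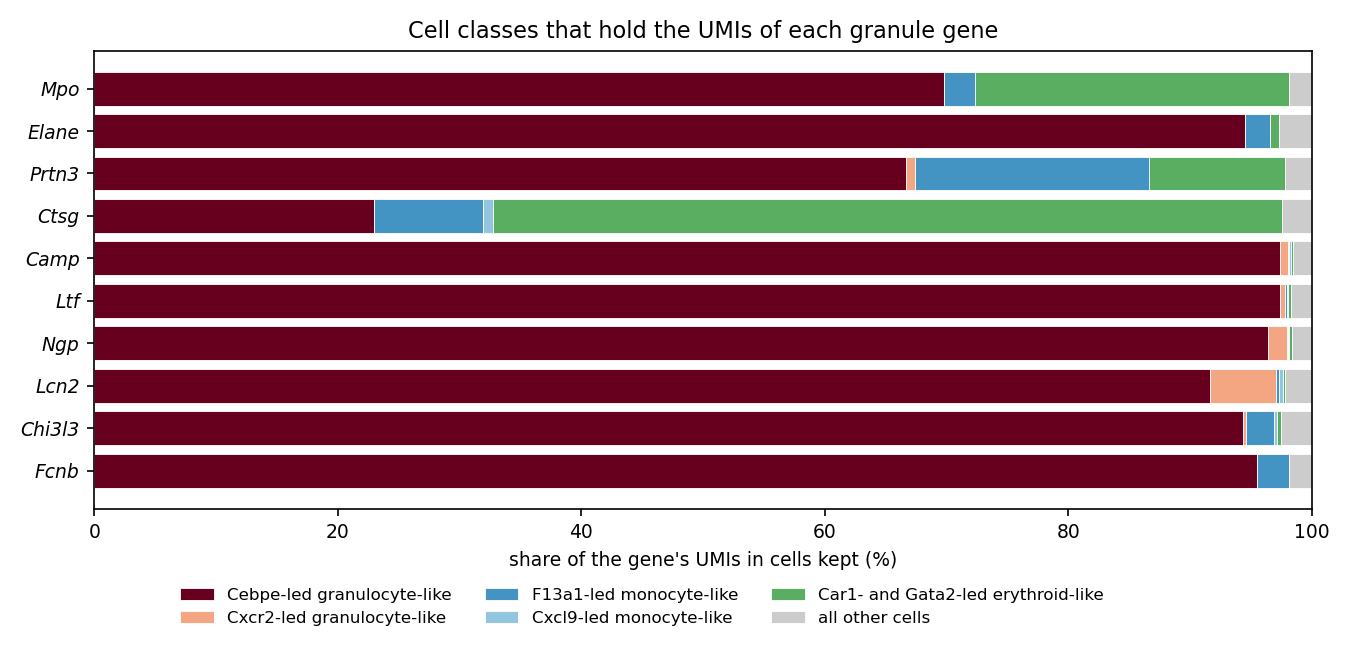
Share of each gene's UMIs (%) by cell class, over all kept cells of the 4 libraries pooled. Dark bars, the Cebpe-led cells, hold over 90% of the UMIs of Elane and of the 6 secondary genes, whereas Ctsg lies mostly in the Car1- and Gata2-led cluster.

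Within the Cebpe-led cells, levels of 5 of the 6 secondary genes differed less between libraries than over all cells, the exception being Fcnb. Camp had 51306 CPM in the combination and 48692 in anti-CD27, against 70731 in anti-CD20 and 52395 in the isotype control, which had only 3 and 5 such cells. Ngp had 47672 CPM in the combination and 54455 in anti-CD27, against 54896 in anti-CD20 and 56529 in the isotype control. Per cell, the summed secondary genes had a median of 1374 per 10000 UMIs in the combination (276 to 1754) and 1320.04 in anti-CD27 (108 to 1841), against 1485 in anti-CD20 (1398 to 1764) and 1338 in the isotype control (1314 to 1575). The ranges overlapped in all libraries. Fcnb had 801 CPM in the combination and 1427 in anti-CD27, against 4223 in anti-CD20 (32 UMIs in 3 cells) and 1168 in the isotype control, so that within these cells it was highest in anti-CD20.

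Ratios within the class were given for the combination over anti-CD27, the only pair with at least 10 such cells on each side. In Cebpe-led cells the secondary sum had a log2 ratio of -0.09 (-0.13 to -0.06), while Lcn2 had -0.34 and Fcnb -0.83. The values of these 2 genes depended on few cells. In anti-CD27, 1 cell held 384 of the 1373 Lcn2 UMIs and 2 cells held 71 of the 126 Fcnb UMIs. Over all granulocyte-like cells the secondary sum had a log2 ratio of -0.21 (-0.24 to -0.17). Of 9 members with at least 30 UMIs in these cells, Mpo and Prtn3 were more than 2-fold lower in the combination, against 2.71% of 1182 genes, and 0 were higher, against 4.82%. In Cebpe-led cells alone the same 2 of 9 members were lower, against 3.01% of 698 genes, and 0 were higher, against 3.58%. For the primary sum in granulocyte-like cells the log2 ratio was -1.25 (-1.57 to -0.93), and it was -2.49 without the 2 Elane-rich cells described next. With granulocyte-like cells taken by their own markers instead of clusters it was 1.93, because that class held the Elane-rich cell of the combination but not that of anti-CD27, and 26 instead of 238 primary UMIs of anti-CD27.

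The Elane and Mpo UMIs came largely from 2 Cebpe-led cells, singled out after their values were seen. The cell of the combination had 32 UMIs of Mpo, 57 of Elane, 27 of Prtn3 and 6 of Ctsg, beside 49 of Camp, 133 of Ngp, 26 of Fcnb, 2 of Lcn2 and none of Ltf or Chi3l3, among 5953 UMIs. The cell of anti-CD27 had 73 UMIs of Mpo, 71 of Elane, 47 of Prtn3 and 21 of Ctsg, beside 14 of Camp, 48 of Ngp, 34 of Fcnb and none of Ltf, Lcn2 or Chi3l3, among 6329 UMIs. Both cells had all 4 primary genes together with Ngp and Fcnb, and no UMI of Ltf or Chi3l3. Both also held UMIs of Ms4a3, a gene of early granulocyte and monocyte precursors (12 and 15), of Cebpe (5 and 2) and of the proliferation gene Top2a (13 and 5), in the combination and the anti-CD27 cell. The pair held 87.1% of all Elane UMIs, 66.0% of Mpo, 54.8% of Prtn3, 22.1% of Ctsg and 22.5% of Fcnb, but 0.568% of Camp and 1.61% of Ngp. No other barcode of their library was 1 base away from theirs.

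Primary transcripts were found in few other cells of the cluster. With the pair included, 15 of 59 Cebpe-led cells had a primary UMI, while Camp was found in every one of the 59. The next richest cell, of anti-CD27, had 12 primary UMIs, 7 of them of Elane, with 369 of Camp and 392 of Ngp. In the anti-CD20 library none of 3 Cebpe-led cells had a primary UMI, and in the isotype control 1 of 5 had 2 UMIs of Prtn3.

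**Figure D4:**
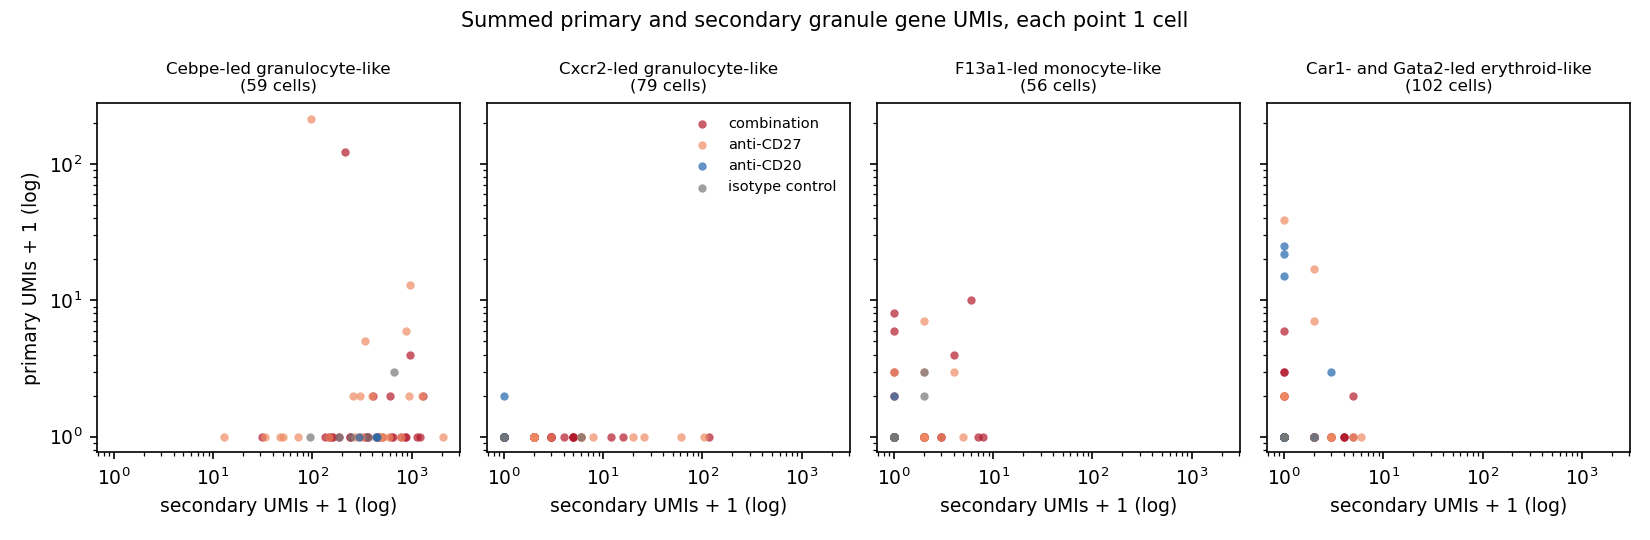
Summed primary against summed secondary granule gene UMIs in each cell (1 added to both, log axes), for 4 clusters, colored by library. In the Cebpe-led panel, the 2 cells highest on the primary axis are the Elane-rich ones. They had 122 primary and 210 secondary UMIs (combination) and 212 and 96 (anti-CD27), under the cluster median of 365 secondary UMIs. All but 1 Cxcr2-led cells lie on the line of no primary UMI.

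Stage within the Cebpe-led cells was followed by the summed UMIs of 12 proliferation genes per 10000, which the granule genes did not enter. The 20 cells with most proliferation UMIs had 3917 CPM of the primary genes, the next 20 cells 206 and the 19 cells with fewest 37.0. Without the Elane-rich pair, both among the 20 most proliferating, the first value was 232 CPM (138 to 367, 18 UMIs), which overlaps the interval of the middle cells (113 to 346). This overlap rested on 1 cell, since 12 of the 14 primary UMIs of the middle cells came from the anti-CD27 cell with 7 Elane UMIs described above. A primary UMI was found in 8 of the 18 first cells without the pair and in 3 of the 20 middle cells. Much of the gap lay in the pair, and whether a gap remained outside it was not tested.

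Ltf had 10617 CPM in the cells with most proliferation UMIs, 14292 in the middle cells and 15075 in those with fewest, and the first value was 12298 without the Elane-rich pair. Chi3l3 ran the other way, with 2515, 1192 and 1147 CPM. The first value was 2913 CPM without the pair. Fcnb had 1447, 1384 and 573 CPM (390 to 814 for the last), of which the first was 902 without the pair (703 to 1140). Lactoferrin transcripts were thus lowest and Chi3l3 highest in the most proliferating cells, with or without the pair. Without the pair, Fcnb was highest in the middle cells and the intervals of the first and last groups overlapped. Of the 94 Fcnb UMIs of the middle cells, however, 37 came from 1 anti-CD27 cell, so the lead of the middle cells depended largely on that cell. Camp had 51427, 50339 and 50996 CPM over the same cells, and without the pair the first value was 58758 (57064 to 60489), above the others. Ngp had 52306.5, 50737 and 50034 CPM, and 58255 for the first without the pair. Lcn2 had 13833, 12187 and 15852 CPM, and 15998 for the first without the pair. It was lowest in the middle cells. Of the 1243 Lcn2 UMIs of the first cells, however, 384 came from the anti-CD27 cell richest in Lcn2. The departure of Lcn2 from the order of Ltf therefore depended largely on that cell. In this order, Lcn2 UMIs per Camp UMI were 0.194, 0.281 and 0.257 in the combination and 0.190, 0.266 and 0.413 in the isotype control. In anti-CD20 they were 0.196 and 0.235, with no cell in the last group. In anti-CD27, which held that cell, they were 0.369, 0.195 and 0.393. Cxcr2 had 55.6, 589 and 629 CPM. Median depth fell along this order as well (3801.5, 2988 and 2321 UMIs), 8 and 10 cells lay within 20% of the limits between the groups, and the part of depth in these differences was not tested. Across the 59 cells, which share libraries and differ in depth, Spearman's rho with the proliferation share was 0.36 for Mpo, 0.34 for Fcnb, 0.29 for Chi3l3, 0.23 for Ngp and 0.21 for Camp, and -0.21 for Ltf and -0.23 for Lcn2, as a description of weak relations in sparse counts.

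Cxcr2-led cells had little secondary granule RNA, and its make-up differed. Lcn2 had 1872 CPM and Ngp 1850.2, against 731 for Camp and 129 for Ltf, with 1 UMI of Chi3l3 and none of Fcnb. The log2 ratio of Cebpe-led over Cxcr2-led cells was 6.12 for Camp (5.78 to 6.49), 4.79 for Ngp (4.57 to 5.02) and 2.88 for Lcn2 (2.66 to 3.11, 7.38-fold). Lcn2 therefore differed least, in the combination (3.08, 2.74 to 3.43) and in anti-CD27 (2.52, 2.21 to 2.84) alike, where Camp had 6.17 and 5.75. More than 2-fold higher in Cebpe-led cells were 9 of 10 members, against 21.7% of 1296 genes with at least 30 UMIs (29% were lower), and Ctsg had too few UMIs. Nothing is read from this count, since Mpo, Elane, Prtn3, Chi3l3 and Fcnb, with at most 1 UMI in Cxcr2-led cells, reached 30 UMIs only through the Cebpe-led cells.

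The Cxcr2-led RNA was unevenly held. Of 79 cells, 34 had no secondary UMI, 38 had 1 to 9 and 7 had at least 10, the last from the combination (3 cells) and anti-CD27 (4 cells). These 7 cells held 347 of the 427 secondary UMIs, including 161 of Ngp, 122 of Lcn2 and 55 of Camp. In the 38 cells with few, Lcn2 gave 52 of 80 UMIs, Camp 13 and Ngp 11. Ngp thus lay mainly in the 7 cells, and Lcn2 was the leading gene in the rest.

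Free RNA in droplets can give UMIs to cells that do not express a gene, so T cell-like cells were taken as a check (362 cells, median 986 UMIs). After thinning each cell to 400 UMIs, Camp was found in 12.7% of Cxcr2-led cells (6.24% to 22.0%) and 5% of T cell-like cells, and Lcn2 in 25.3% (16.2% to 36.4%) and 1.11%. Without thinning these shares were 19.0% and 10.2% for Camp, and 36.7% and 2.21% for Lcn2. The ratio of Lcn2 to Camp UMIs was 2.56 in Cxcr2-led cells (1.92 to 3.44), against 0.216 in T cell-like cells (0.0870 to 0.472) and 0.271 in Cebpe-led cells (0.260 to 0.282). In B cell-like cells it was 0.566 (0.349 to 0.902), and over all cells outside the granulocyte-like clusters 0.433 (0.336 to 0.554). The ratio in T cell-like cells overlapped that of Cebpe-led cells and the ratio in B cell-like cells was higher, but the ratio in Cxcr2-led cells was above all of these, in the combination (2.05, 1.37 to 3.13) and in anti-CD27 (3, 1.98 to 4.66). A UMI of Fcnb was found in 0 of 79 Cxcr2-led cells, for which a floor of 3 cells is a share of 3.80%. That floor concerns cells with a UMI and sets no limit on cells that express Fcnb at a low level.

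**Figure D5:**
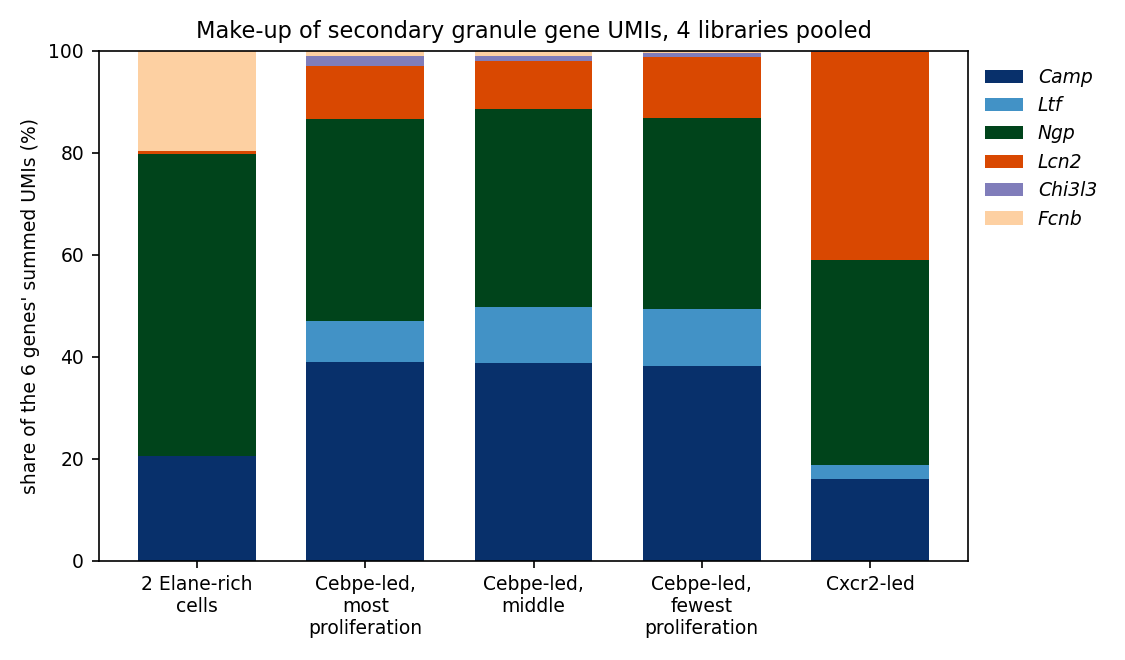
Make-up (%) of the summed UMIs of the 6 secondary genes in the Elane-rich pair, in the Cebpe-led cells by proliferation UMIs (the pair is among those with most) and in Cxcr2-led cells, 4 libraries pooled. Ngp gave 59.2%, Camp 20.6% and Fcnb 19.6% in the pair, Camp and Ngp gave 38.9% and 39.6% in the cells with most proliferation UMIs, and Lcn2 gave 40.7% in Cxcr2-led cells.

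In Cxcr2-led cells the secondary sum was lower in the combination than in anti-CD27, with a log2 ratio of -0.90 (-1.19 to -0.62). Ngp had 1289 CPM in the combination (67 UMIs) and 3064 CPM in anti-CD27 (105 UMIs), a log2 ratio of -1.25 (-1.71 to -0.79). It was the only one of 3 members with at least 30 UMIs that was more than 2-fold lower, against 5.76% of 382 genes, and none was higher, against 7.33%. Camp had 712 CPM in the combination and 905 CPM in anti-CD27 (-0.35, -1.07 to 0.39). With 347 of the 427 secondary UMIs of the cluster in 7 cells, such intervals are too narrow. The 9 cells of anti-CD20 and the isotype control held 5 secondary UMIs, all of Lcn2.

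Monocyte-like cells of the cluster led by F13a1, Fn1, Ccr2 and Ly6c2 (56 cells, median 2243 UMIs) carried Prtn3. It had 26 UMIs in 11 of these cells, 190.2 CPM, with 188 CPM in the combination (15 UMIs) and 293 CPM in anti-CD27 (10 UMIs), against 0 UMIs in anti-CD20 and 1 in the isotype control. Against all other cells outside the granulocyte-like clusters, Prtn3 was 29.2-fold higher (log2 ratio 4.87, 3.95 to 5.82), as a description of clusters. Thinned to 400 UMIs, Prtn3 was found in 7.14% of F13a1-led cells and 0.278% of T cell-like cells. Ctsg had 11 UMIs in 3 of these cells, Mpo 4 and Elane 3. Camp had 80.5 CPM in F13a1-led and 88.4 CPM in T cell-like cells, a level at the background. Of the 14 F13a1-led cells with a primary UMI, 3 had Camp. The other monocyte-like cluster, led by Cxcl9 (78 cells), held 1 primary UMI, of Ctsg, and 78.5 CPM of Camp. The ratio of the combination to anti-CD27 for Prtn3 (log2 -0.64, -1.89 to 0.68) includes no change.

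Ctsg lay mostly elsewhere. Of its 122 UMIs, 79 were in a cluster named erythroid-like by 3 markers (Car1, Ermap and Klf1) but also led by Gata2 (102 cells, 44 in the combination, 30 in anti-CD27, 22 in anti-CD20 and 6 in the isotype control). In it, 5 cells with at least 10 UMIs of the basophil protease gene Mcpt8, chosen after the values were seen, held 72 Ctsg UMIs (59.0%) and 25 Mpo UMIs (15.7%), with no Elane, Prtn3, Camp, Ngp, Lcn2, Chi3l3 or Fcnb and 1 UMI of Ltf. By library, 1 of these cells came from the combination (4 Ctsg UMIs), 2 from anti-CD27 (39) and 2 from anti-CD20 (29), and none from the isotype control. These counts stand beside the all-cell order of Ctsg, in which anti-CD27 and anti-CD20 were highest. Of the 24 Mpo UMIs of anti-CD20, 22 lay in this cluster, 9 of them in its Mcpt8-rich cells. Another 13 lay in 1 cell with no Mcpt8 UMI, singled out after the values were seen. That cell had 6 UMIs of Prtn3 and 3 each of the early myeloid genes Kit and Myb.

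Other genes of the same granules were taken as lists, to be read beside the 21.7% of all genes more than 2-fold higher and 29% more than 2-fold lower in this comparison. In Cebpe-led over Cxcr2-led cells, 4 of 6 other primary granule genes were more than 2-fold higher (Lyz1 and Lyz2, the lysozymes, Cd63, a granule membrane protein, and Serpinb1a, an inhibitor of the serine proteases) and 2 were lower (the protease gene Ctsd and the proteoglycan gene Srgn). Of 10 other secondary and gelatinase granule genes, 3 were higher (Cd177, Cybb, the oxidase subunit, and Lyz2) and 1 lower (Arg2), with a median log2 ratio of 0.19 beside -0.17 over all genes. The gelatinase gene Mmp9 had 472 CPM in Cebpe-led and 947 CPM in Cxcr2-led cells, and Mmp8 had 864 CPM and 1721 CPM in the same order. Of 4 regulator genes compared, Cebpe was more than 2-fold higher in Cebpe-led cells, and Cebpb, Spi1 (PU.1) and Klf6 were more than 2-fold lower.

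Over all cells of the combination against anti-CD20, 5 of 8 other primary granule genes were more than 2-fold higher (Ctsc, Ctsd, Lyz1, Lyz2 and Cd63), as were 9 of 11 other secondary and gelatinase genes, against 6.95% of all genes. In anti-CD27 against the isotype control, these counts were 2 of 8 and 6 of 10, against 4.9%. Several of these genes are also transcribed by monocytes: Ctsc had 1419 CPM in F13a1-led cells and 1 UMI in Cebpe-led cells, and Lyz2 had 19178 CPM in F13a1-led and 19244 CPM in Cebpe-led cells.

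Across the 138 granulocyte-like cells and 2138 genes, the non-member genes most like the summed secondary genes were Lyz2 (Spearman's rho 0.83), Anxa1 (0.79), Cybb (0.77), Dstn (0.76) and Serpinb1a (0.72). Among those most like the summed primary genes were Ran (0.63), 2810417H13Rik (0.59), Nucks1 (0.57) and Tuba1b (0.57). Only 15 Cebpe-led cells and 1 Cxcr2-led cell had a primary UMI, so most values of the primary sum were tied at 0. The points share libraries and differ in depth, and these values are given as a description.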

How the data were processed

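As the methods of the study state, the authors discarded pairs of poor barcode quality, clipped adapters and polyA tails, used STAR 2.5.0a to align the remaining reads (genome mm10) and Dropseq-tools to count UMIs. The authors deposited raw UMI counts, unscaled and unfiltered, with a largest value of 2416. The members and gene lists were chosen with earlier results of these data known.

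Barcodes with 300 to 3000 detected genes were kept, the limits of the study. Clusters came from 2000 variable genes without the 10 members and the other granule gene lists, 30 principal components, 15 neighbors and the Leiden method (leidenalg 0.10.2, resolution 1.0, seed 0). A cluster took the name of the class with most markers, at least 3, among its top 30 genes by fold, a rule set with such clusters already known. No doublets were removed beyond the upper limit on genes. Scrublet in scanpy 1.11.5 marked 16 of 1770 cells (0.904%), of which 1 was granulocyte-like.

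CPM were given exact Poisson intervals and log2 ratios exact conditional intervals, shares Clopper-Pearson intervals and their differences Newcombe intervals. Ratios within a class needed 10 cells per library, and a count of 0 was set to a floor of 3. Comparison with all genes used genes with at least 30 UMIs over both sides and a more than 2-fold ratio after adding 10 CPM. All 10 members were considered in every comparison, but not every member's value is given singly. Other genes, apart from those that led a cluster, came only from the fixed lists. Added to these were the 5 genes most correlated with each sum, among genes detected in at least 10% of granulocyte-like cells. Also named were the cells and genes said to have been chosen after their values were seen. Of these correlated genes, 1 is not reported here. The ratio and interval code was tested on simulated counts.

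The alternatives were other limits on genes, dropping the shallower barcode where 2 differed by 1 base, other cluster settings, classes from each cell's own markers, doublet removal, the mean over cells, totals without haemoglobin and mitochondrial genes, TMM factors (edgeR 4.0.16), leaving out the richest cell of each library and thinning to 800 UMIs or none. Leaving out the Elane-rich pair was added after seeing the data. Promoters came from a RefSeq table of GRCm38.p6 and gene positions from a GRCm38 annotation. Software was R 4.3.3 and Python 3.11.15 with scipy 1.17.1, numpy 2.4.6 and pandas 2.3.3.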

Additional observations from a re-analysis of the deposited data

Results flagged for a closer look

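Barcodes outside the limits on genes, used above only to check Ctsg, held more granule UMIs in the libraries with anti-CD27 than in the others. Above 3000 genes, the primary genes had 129 UMIs in 30 barcodes of the combination and 161 UMIs in 14 of anti-CD27, against 0 in the 5 barcodes of anti-CD20 and 0 in the 2 of the isotype control. Of these 290 UMIs, 281 lay in 6 barcodes with 133 Prtn3, 61 Mpo, 61 Ctsg, 26 Elane and 10 Camp UMIs, each of which also had 56 to 323 UMIs of the monocyte gene Ly6c2. Of all Prtn3 UMIs, 48.9% were above the limit, 49.2% in the combination and 52.7% in anti-CD27. The secondary genes had 124 UMIs there in the combination and 67 in anti-CD27, against 5 in anti-CD20 and 3 in the isotype control.

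Below 300 genes, the secondary genes had 661 UMIs in 338 barcodes of the combination and 739 in 288 of anti-CD27, against 206 in 294 of anti-CD20 and 189 in 457 of the isotype control. The primary genes had 20 UMIs there in the combination and 3 in anti-CD27, against 1 in anti-CD20 and 0 in the isotype control.

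Ctsg was lower in the combination than in anti-CD20 (log2 ratio -0.72) but at least 11.5-fold higher in anti-CD27 than in the isotype control, a difference between the comparisons that was not tested. The first direction turned with no upper limit on genes (0.08, -0.60 to 0.78), since 27 Ctsg UMIs of the combination and 0 of anti-CD20 lay above that limit.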

How the results depend on the processing

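No paired analysis was possible because each treatment was 1 library. The primary sums depended on few cells. In the combination over anti-CD20 their log2 ratio of 1.39 was 0.20 without the richest cell of each library and -0.45 without the Elane-rich pair, and in anti-CD27 over the isotype control 4.97 became 3.44 without that pair. In granulocyte-like cells of the combination over anti-CD27, -1.25 became -2.49 without the richest cells or the pair, and 1.93 when cells were classed by their own markers, where Mpo had 2.35, Elane 2.0, Prtn3 1.46 and Ctsg 2.22. The own-marker class held the pair's combination cell and not its anti-CD27 cell.

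The secondary sums kept their direction in every setting run. For the combination over anti-CD20, 3.50 became 3.03 with no upper limit on genes, 3.0 as a mean over cells and 4.01 without the richest cells. For anti-CD27 over the isotype control, 1.90 became 1.78, 1.59 and 2.40 in these settings and 2.07 with TMM factors. In granulocyte-like cells, -0.21 became -0.16 with a lower limit of 500 genes, -0.43 as a mean over cells and -0.14 without the richest cells. The lower limit of 500 genes also gave a granulocyte-like share of 12.3% in the combination, against 16.4%, and of 1.05% in anti-CD20, against 1.80%. With it, thinned granulocyte-like cells with Camp were 61.5% against 46.5% in the combination and 70% against 52% in anti-CD27, and those with Lcn2 66.7% against 50.7% and 76.7% against 62%. The causes of these shifts were not tested.

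Of single genes, Mpo in the combination over anti-CD20 had -1.10 without the richest cells and -2.22 without the pair, against 0.66. Ctsg in the same comparison had 0.08 with no upper limit on genes, against -0.72. Under all alternatives, sums and shares stayed within the interval of their value in 93 cases, moved in 19 and reversed in 2, and single genes did so in 233, 38 and 4 cases. A change of sign counted as reversed only where the interval of the main ratio excluded no change. The changes of sign of Mpo and Ctsg in the combination over anti-CD20 are therefore not among the reversed cases.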
